A study of Mus musculus with 16 samples.

Results

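CD135 and CD127 are 2 cell surface receptors of early blood development, measured here as antibody tags on single mouse bone marrow cells whose DNA methylation was read in the same droplets. The tags were looked for in the 8 antibody files of a 16-library mouse series. Of 148 tags across those files, these 2 were followed in 7120 cells with 100 or more tag counts, out of 13550 cells in 3 bone marrow libraries. Their relation to each other and to 596 methylation amplicons was set beside that of the other 17 tags of the same panel.

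CD135 is the product of Flt3, a receptor tyrosine kinase for the cytokine FLT3 ligand. It is known from mouse marrow as a mark of multipotent and lymphoid-primed progenitors and of dendritic cell precursors, and it is low or absent on the most primitive stem cells. CD127 is the product of Il7r, the alpha chain of the interleukin-7 receptor, which passes the signal that early B and T cell precursors need to survive and divide. Cells that carry both receptors include the common lymphoid progenitors, which are known to have less c-Kit than stem cells. Flt3 (gene ID 14255) lies on chromosome 5 at 147330741-147400489 and Il7r (gene ID 16197) on chromosome 15 at 9506159-9529941, by RefSeq annotation of GRCm38.p6. The amplicons are known by panel identifiers only, so none could be placed in or near either gene.

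The 3 libraries were bone marrow from mouse 3 and mouse 4 of the main LARRY experiment and from mouse 1 of its replicate experiment. LARRY marks cells with lentiviral DNA barcodes to follow their descendants. The labels give the tissue and the words immune cells, but no strain, age, sex or sort. A further LARRY library of mature immune cells pooled from bone marrow and spleen (BM+spleen) had no CD135 or CD127 tag and served for amplicon values and for its own lineage tags. scTAM-seq digests DNA with an enzyme that spares methylated sites before a targeted amplification, so an amplicon with 1 or more reads was called methylated in that cell. Tag levels are counts of unique molecular identifiers (UMIs) of antibody-linked oligonucleotides.

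The 3 libraries differed in how many cells were well stained. Main mouse 3 had 2675 of 5478 cells, main mouse 4 had 1342 of 3385 and replicate mouse 1 had 3103 of 4687 with 100 or more tag UMIs. Those cells had a median of 215, 212 and 301 tag UMIs and of 45911, 36300 and 68135 reads. Most tag UMIs, 84.7%, 86.3% and 67.6%, lay on barcodes that were not called cells. Libraries shared between 5 and 12 cell barcodes with one another and between 9 and 23 with the BM+spleen library. In main mouse 4 the well stained cells had fewer reads than the others, whose median was 79440.

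Both receptors were weak tags. CD135 had a median of 1, 2 and 1 UMIs per cell in main mouse 3, main mouse 4 and replicate mouse 1, and a mean of 7.98, 6.58 and 12.1 UMIs. CD127 had the same medians, 1, 2 and 1 UMIs, with means of 8.67, 8.33 and 12.6 UMIs. The means lay far above the medians, and the 5% of cells with the most CD135 held 72.2%, 65.6% and 82.1% of all CD135 UMIs, and the corresponding values for CD127 were 71.7%, 65.1% and 86.6%.

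Most cells had 1 or more UMIs of each tag. CD135 had at least 1 UMI in 68.7%, 76.0% and 62.5% of cells, and after thinning every cell to 100 tag UMIs in 48.3%, 54.9% and 37.8%. For CD127 these shares were 67.9%, 79.1% and 58.9%, and 47.3%, 59.7% and 32.8% after thinning. Cells in the top 10% for both CD41 and CD61, platelet-lineage integrins, had a CD135 UMI in 98.3%, 100% and 87.9% of cells, against 66.7%, 74.7% and 60.9% of the remaining cells. Their median CD135 was 40, 29.5 and 41.5 UMIs at a total of 1199, 1008.5 and 1841.5 tag UMIs, against 1, 2 and 1 UMIs at 203, 202 and 280 in the remaining cells. After thinning, the platelet-marked cells still had the larger share, 90.2%, 89.7% and 61.0% against 45.4%, 53.1% and 36.4%. They were thus high in CD135 as well and give no background level, and no other cell set that should lack the receptors was used to set one, so a UMI is not read as a receptor on the cell. In all 3 libraries, both tags, like most of the panel, made up a smaller part of UMIs in cells than on barcodes outside cells. That ratio was 0.721, 0.651 and 0.988 for CD135 and 0.646, 0.668 and 0.714 for CD127. From the highest ratio down among 19 tags, CD135 ranked 10, 19 and 6 and CD127 ranked 14, 13 and 15.

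Most of the signal of both receptors sat in a minority of cells that carried many tags at once. Cells with 5 or more UMIs of both Ter-119, an erythroid marker, and FceRIa, the mast cell and basophil IgE receptor, numbered 258, 159 and 241. They were 9.64%, 11.8% and 7.77% of cells but held 79.1%, 73.0% and 82.2% of CD135 UMIs and 78.4%, 74.9% and 88.8% of CD127 UMIs. The same cells held 36.0%, 34.3% and 38.4% of all tag UMIs. CD135 had a median of 24, 12 and 30 UMIs in them, against 1, 1 and 1 in the other cells. CD127 had a median of 35, 20 and 42 UMIs in them, against 1, 2 and 1 in the other cells. CD34, ESAM, CD115, CD41 and CD150 were higher there too, whereas CD49f, an integrin that was abundant on the other cells, had a median of 35, 23 and 48 UMIs in them, against 58, 48 and 62. Tags of stem, platelet and myeloid cells were thus high together with the Ter-119 and FceRIa that define these cells. The part of these cells in the results was not tested beyond leaving them out.

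**Figure D1:**
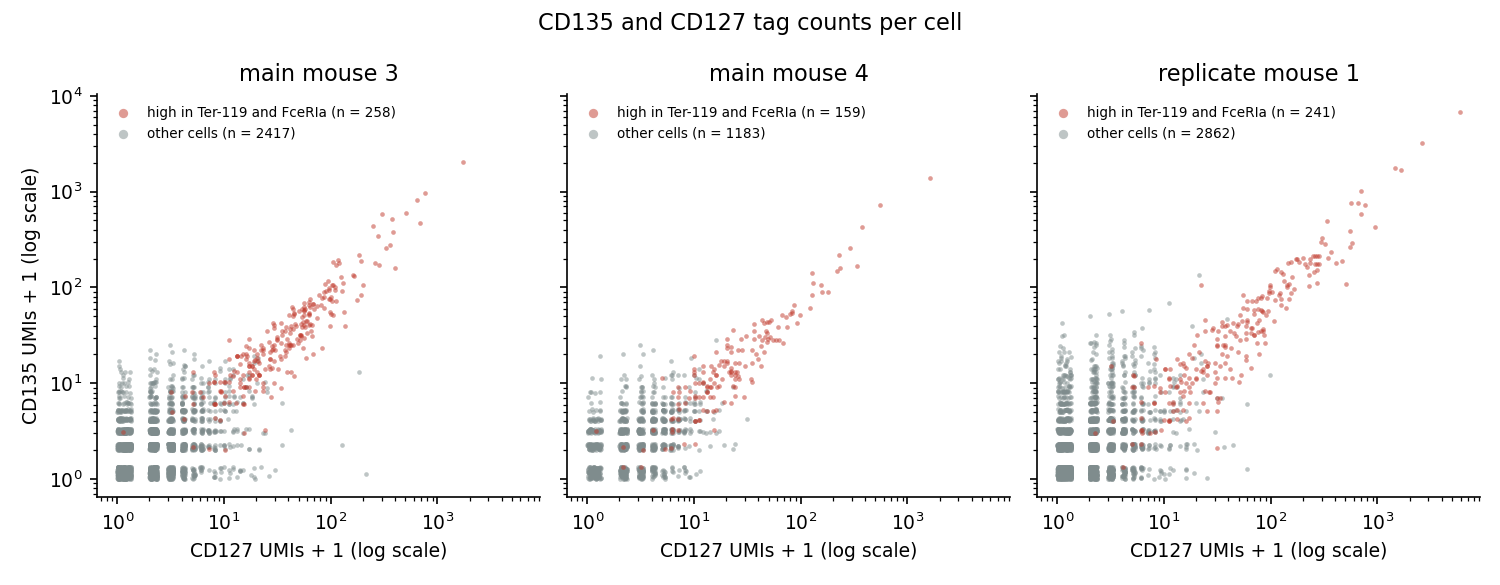
UMIs of CD127 (horizontal axis) and CD135 (vertical axis) in each cell of the 3 bone marrow libraries, both plus 1 on log scales with a small random offset, red for cells with 5 or more UMIs of both Ter-119 and FceRIa and grey for the other cells. The red cells, 258, 159 and 241 of them, lie along the diagonal and hold most of the UMIs of both tags, while grey cells with 10 or more UMIs mostly have them for 1 tag only.

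Cells with 10 or more UMIs of both receptors numbered 218, 96 and 187, of which 205, 93 and 175 were in the Ter-119 and FceRIa set. Among the other cells, 63, 29 and 157 had 10 or more CD135 UMIs and 80, 31 and 63 had 10 or more CD127 UMIs. Both were reached in 13, 3 and 12 of them, so most of these cells were high in 1 receptor.

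Outside the Ter-119 and FceRIa set, cells high in CD135 had more CD27 and I-A/I-E. Cells with 10 or more CD135 UMIs had a CD27 median of 53, 54 and 83 UMIs, against 11, 7 and 14 UMIs in the other cells with fewer than 10. CD27 is a costimulatory receptor known from multipotent and lymphoid-primed progenitors. I-A/I-E, the class II antigen-presenting molecules, had a median of 60, 44 and 92 UMIs in the CD135 cells, against 15, 12 and 12 UMIs. Sca-1, a stem and multipotent progenitor marker, had a median of 7, 10 and 7 UMIs against 2, 2 and 1. The CD135 cells also carried more tag UMIs in all, with a median of 433, 425 and 848 tag UMIs against 197, 195 and 267, so CD27 and I-A/I-E exceeded the difference in total while c-Kit, at 26, 22 and 41 UMIs against 17, 16 and 25, did not.

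Cells with 10 or more CD127 UMIs showed less c-Kit and less CD27 instead. c-Kit, the stem cell factor receptor, had a median of 9, 7 and 15 UMIs in them, against 17, 17 and 25 UMIs in the other cells with fewer than 10. CD27 had a median of 3, 2 and 13 UMIs in them, against 12, 7 and 16. CD49f had a median of 20, 22 and 40 UMIs, against 60, 49 and 63. CD48, a marker of progenitors past the stem cell stage, went the other way with 80, 123 and 100 UMIs against 39, 37 and 63. Their total, 244.5, 317 and 416 tag UMIs against 198, 196 and 277, was higher, so c-Kit, CD27 and CD49f were lower at a higher total. These cells are few and were chosen by the tag itself, so the values are a description.

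Over all cells the tags rose together. To compare tags, the rank of each tag's UMIs was correlated within each library after both log10 reads and log10 total tag UMIs had been regressed out, and the 3 library values were tested against 0 by limma with adjustment over 171 pairs of tags. CD135 and CD127 had a partial correlation of 0.282, 0.388 and 0.240, a mean of 0.303 with a standard error of 0.0418 on the Fisher z scale and an adjusted p of 0.00191. All 3 libraries were positive. Such a call was common in this panel, with 118 of 171 pairs called (69%), 45.6% positive and 23.4% negative, and the pair ranked 24 among them by its mean. Cells in the top 25% for both tags were 12.0%, 13.2% and 10.9% of cells, where the product of 2 such shares is 6.25%. Without the cells high in Ter-119 and FceRIa the partial correlation was 0.172, 0.258 and 0.133, with a limma adjusted p of 0.00982. The mean was then 0.188, beside 0.165 for CD135 with FceRIa and 0.159 with Ter-119. CD127 then had 0.261 with Ter-119 and 0.222 with FceRIa, more than with CD135. Leaving these cells out thus did not remove the relation of either receptor to Ter-119 and FceRIa.

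The closest partners of both receptors included erythroid and mast cell tags. CD135 followed CD34 most, with 0.346, 0.436 and 0.276, and after CD127 came FceRIa with a mean of 0.291. CD34 is a sialomucin of stem and progenitor cells. CD49f, with a mean of -0.279, c-Kit, with -0.100, and CD48, with -0.0812, were at the other end, and of these CD48 missed the threshold (limma adjusted p = 0.166). Without the cells high in Ter-119 and FceRIa, c-Kit had -0.0568, -0.0559 and -0.0556 with CD135 and was not called (limma adjusted p = 0.112). CD127 followed CD34 with a mean of 0.460, Ter-119 with 0.385 and FceRIa with 0.361, all called. CD49f, CD27 and c-Kit were its lowest, with means of -0.361, -0.256 and -0.163, all called and negative in 3 of 3 libraries. Sca-1 rose with both, at a mean of 0.219 with CD135 and 0.166 with CD127. CD27 had -0.0121, -0.0638 and 0.118 for CD135 and -0.304, -0.278 and -0.186 for CD127, and that difference was not tested. Without the cells high in Ter-119 and FceRIa, CD27 was positive with CD135 in all 3 libraries, at 0.0870, 0.0169 and 0.200, but not called (limma adjusted p = 0.0987). With CD127 it was then -0.226, -0.211 and -0.125 and called (adjusted p = 0.00806).

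**Figure D2:**
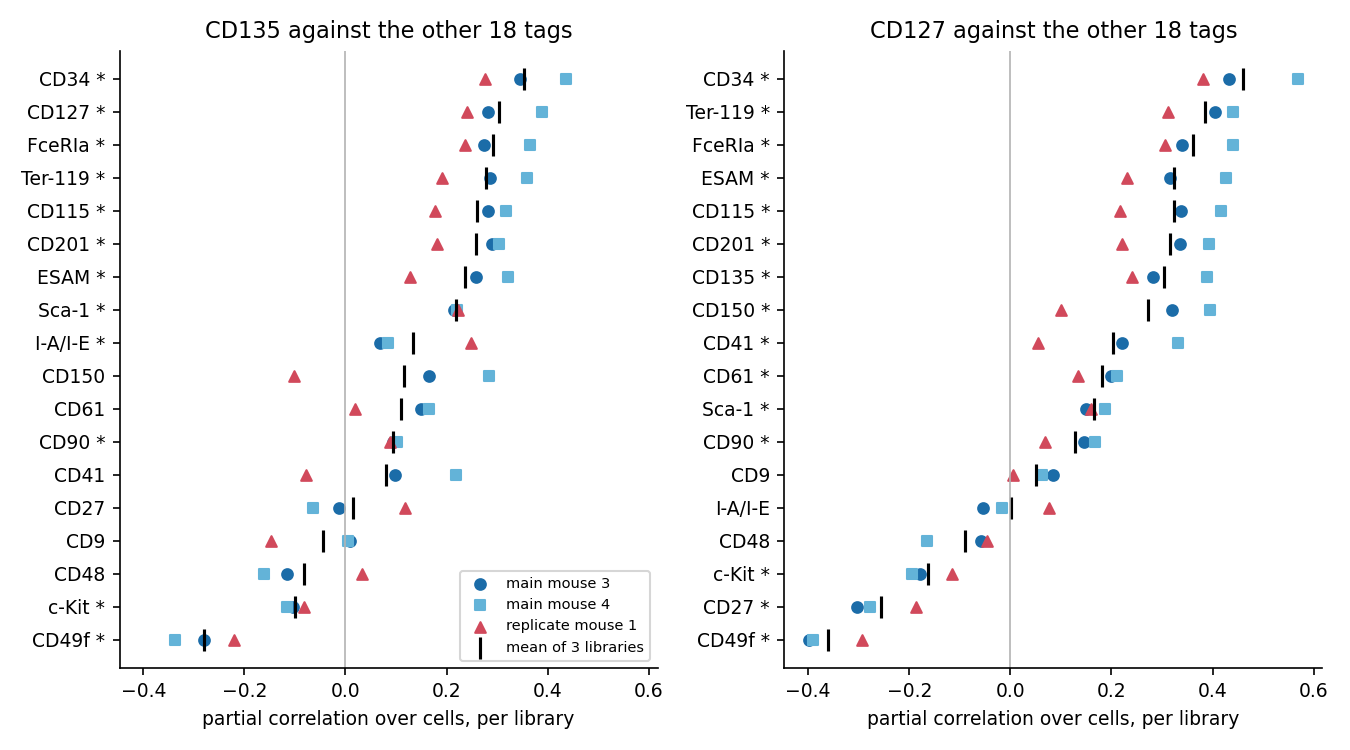
Partial correlation of CD135 (left) and CD127 (right) with each of the other 18 tags over cells, given reads and total tag UMIs, with 1 symbol per library, a bar for the mean of 3 libraries and an asterisk for a call by limma at an adjusted p under 0.05. CD34 has the highest and CD49f the lowest mean for both, and CD27 is negative for CD127 in every library while for CD135, over all cells, it is near 0 in the main mice and positive in replicate mouse 1.

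Amplicon methylation was related to both receptors, weakly. The same partial correlation was taken between each tag and each amplicon's call, and limma was run over the 3 libraries with adjustment over all 11324 pairs of an amplicon and a tag. CD135 had 53 amplicons called positive (8.89% of 596), meaning more often methylated in cells with more of the tag, and 3 called negative (0.503%), 9.4% in all. CD127 had 112 positive (18.8%) and 13 negative (2.18%), 21% in all. Of all 11324 pairs 21.9% were called, 15.6% positive and 6.35% negative, and of those with the other 17 tags 22.7%, so CD127 was near that background and CD135 had the fewest calls of 19 tags. Its largest correlation, 0.148, was the smallest such maximum of any tag, and that of CD127 was 0.202. Among amplicons called, positive ones made up most for both receptors, while over the other 17 tags 15.8% of pairs were positive and 6.94% negative.

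These counts varied with the libraries used, and all but that of CD127 without replicate mouse 1 moved by more than 1.5 times. CD135 had 9 positive calls without main mouse 3, 28 without main mouse 4 and 116 without replicate mouse 1. For CD127 these were 17, 41 and 145. Across the 596 amplicons, the correlations with CD135 in main mouse 3 and main mouse 4 had a Pearson r of 0.699, and each had 0.362 and 0.246 with replicate mouse 1. For CD127 the values were 0.832, 0.725 and 0.681. The 2 main mice share an experiment, which cannot be told apart from other differences to the replicate mouse. Without the cells high in Ter-119 and FceRIa, 35 positive and 0 negative amplicons were called by limma for CD135 (6 negative at an unadjusted p under 0.05) and 60 positive and 4 negative for CD127, while the calls over all pairs came to 15.3%. For CD135, 29 of the 35 were among the 56 above, and for CD127, 63 of the 64 were among the 125.

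The amplicon with the strongest relation to CD135 was AMPL376917. Its partial correlation was 0.128, 0.121 and 0.195, a mean of 0.148 (SE 0.0189 on the z scale, limma adjusted p = 0.00192). It was methylated in 58.0%, 58.3% and 55.0% of cells in the 25% with the most CD135 for their depth (top 25% below), and in 40.7%, 42.3% and 28.5% of the 25% with the least (bottom 25%). The amplicon was chosen by this correlation, so a gap between the top and bottom 25% follows from that choice. Their median CD135 was 5, 5 and 6 UMIs against 0, but the bottom 25% also held some strongly stained cells, and in replicate mouse 1 the mean was 12.1 UMIs in the top 25% and 13.1 UMIs in the bottom 25%. AMPL376917 was called with CD127 as well, at a mean of 0.127 (adjusted p = 0.0014). Its mean correlations with c-Kit, -0.311, CD61, 0.271, CD49f, -0.236, and CD115, 0.161, were larger in size than that with CD135.

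AMPL366088, AMPL365895 and AMPL366042 followed CD135 in the same way. In the top against the bottom 25% AMPL366088 was methylated in 62.9%, 60.7% and 65.5% against 49.8%, 48.8% and 38.7% of cells. AMPL365895 had 83.9%, 82.7% and 87.8% against 73.7%, 72.3% and 65.3%. AMPL366042 had 62.9%, 67.3% and 74.7% against 54.1%, 54.8% and 49.0%. In each, replicate mouse 1 had the widest gap. All 3 were also negative with c-Kit, at mean partial correlations of -0.242, -0.209 and -0.184. They were called positive with CD61 as well, at 0.152, 0.193 and 0.146, and with CD115, a monocyte and macrophage receptor, at 0.131, 0.0995 and 0.122.

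The amplicons above were named for their correlation with CD135 over all cells, so their shares in a subset are a description only. Shares were taken in the cells that were high in CD135 without being high in Ter-119 and FceRIa. Among them AMPL366088 was methylated in 48 of 63, 25 of 29 and 137 of 157 cells, which is 76.2%, 86.2% and 87.3%, against 53.3%, 55.0% and 46.9% of the other cells with fewer than 10 CD135 UMIs. AMPL376917 was methylated in 65.1%, 69.0% and 67.5%, against 44.7%, 47.9% and 34.4%. AMPL365895 was methylated in 87.3%, 100% and 96.8%, against 77.1%, 77.3% and 72.6%. The exact 95% binomial interval of the smallest set was wide, from 49.2% to 84.7% for AMPL376917 in main mouse 4. Median reads were 54863, 40889 and 78864 in the CD135 cells, against 45694, 35262 and 67038.

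AMPL388255 behaved differently from the other CD135 amplicons. It was methylated in few cells, 4.3%, 4.5% and 3.6%, and was called for both CD135, at 0.131, and CD127, at 0.169. In the Ter-119 and FceRIa set it was methylated in 30.2%, 28.3% and 27.4% of cells, against 1.5%, 1.3% and 1.6% of the other cells. Without that set its relation to CD135 was 0.0228 and was not called (limma adjusted p = 0.440), and that to CD127 was 0.0509 (adjusted p = 0.0572). AMPL388287 had the same pattern with 27.5%, 32.7% and 24.1% against 2.1%, 3.3% and 1.4%, and its relation to CD127, 0.156 over all cells, was 0.0532 without the set (adjusted p = 0.0518). Both amplicons were thus methylated mainly in the cells high in many tags.

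The 3 amplicons called negative with CD135, AMPL378355, AMPL365795 and AMPL388452, had small correlations of -0.0804, -0.0525 and -0.0498. AMPL378355 was methylated in 87.6%, 81.2% and 74.7% of cells in the top 25% by CD135, against 92.2%, 90.2% and 82.0% in the bottom 25%. In the cells with 10 or more CD135 UMIs outside the Ter-119 and FceRIa set it went the other way, with 96.8%, 89.7% and 84.7% against 91.6%, 87.9% and 79.1% of those with fewer than 10. None of the 3 was called without the cells high in Ter-119 and FceRIa (limma adjusted p from 0.0646 to 0.407). Nor was any of them called without main mouse 3 (adjusted p from 0.0856 to 0.296) or without main mouse 4 (from 0.0680 to 0.159).

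**Figure D3:**
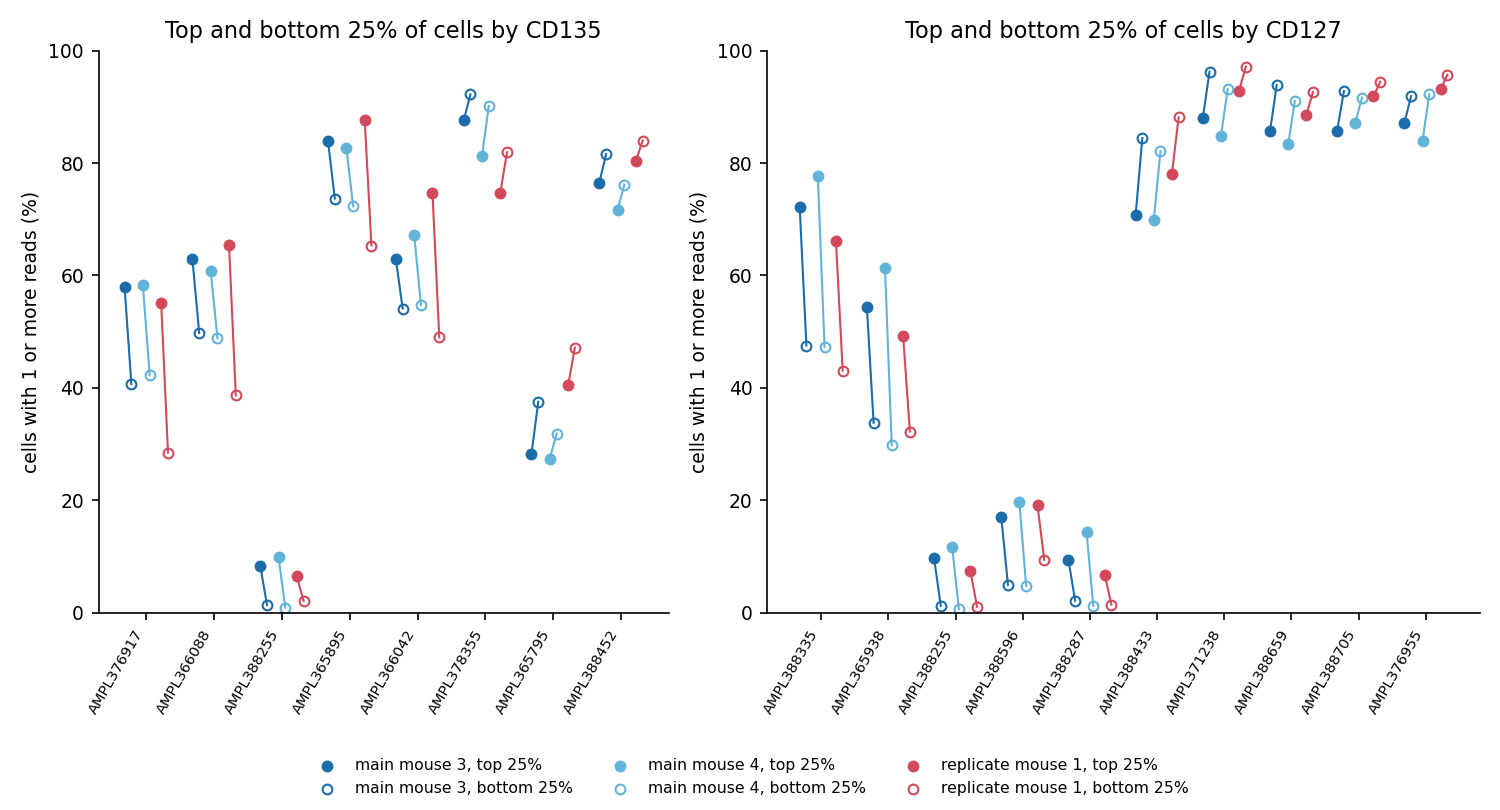
Share of cells with 1 or more reads for the named amplicons, in the 25% of cells with the most tag for their depth (filled) and the 25% with the least (open), by CD135 (left) and CD127 (right), 1 pair of points per library. AMPL376917 and AMPL366088 lie higher in the top 25% by CD135 in all 3 libraries, AMPL388335 lies higher and AMPL388433 lower in the top 25% by CD127, and AMPL388255 reaches at most 11.6% in any of them.

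AMPL388335 had the strongest relation to CD127. Its partial correlation was 0.205, 0.231 and 0.171, a mean of 0.202 (SE 0.0169 on the z scale, limma adjusted p = 0.000598). Its mean correlations with CD49f, -0.332, CD61, 0.241, CD115, 0.232, and CD27, -0.218, were larger in size than that with CD127. It was methylated in 72.2%, 77.7% and 66.1% of cells in the top 25% by CD127, against 47.5%, 47.3% and 43.0% in the bottom 25%. The median CD127 of those cells was 5, 7 and 4 UMIs against 0. Of the cells with 10 or more CD127 UMIs outside the Ter-119 and FceRIa set, 86.2%, 90.3% and 84.1% were methylated there, against 53.7%, 56.6% and 49.8% of the cells with fewer than 10. AMPL365938 came next, with 54.4%, 61.3% and 49.2% against 33.8%, 29.8% and 32.2%, and its correlation with Ter-119, 0.26, was larger than that with CD127, 0.18.

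AMPL388596 was methylated in few marrow cells, and in more of those with CD127. It had 17.0%, 19.6% and 19.1% methylated in the top 25% by CD127, against 4.9%, 4.8% and 9.4% in the bottom 25%, and a mean partial correlation of 0.164 (limma adjusted p = 0.00151). Cells called methylated had a median of 9, 13 and 2 reads of it, so shares in replicate mouse 1 lie near the 1-read threshold. With a call at 5 or more reads the relation was 0.168 on the z scale (limma adjusted p = 0.00121). Of the cells with 10 or more CD127 UMIs outside the Ter-119 and FceRIa set, 18 of 80, 13 of 31 and 24 of 63 were methylated there, which is 22.5%, 41.9% and 38.1%, against 5.48%, 6.08% and 12.3% of the cells with fewer than 10. The exact 95% intervals began at 13.9%, 24.5% and 26.1% and cover counting error only. Amplicons named for CD127 were chosen by their correlation with it over all cells, so their shares in these cells are a description. Median reads were 52552, 38769 and 81349 in the CD127 cells, against 45635, 35262 and 67849.

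The named negative amplicons of CD127 were methylated in most marrow cells, and in fewer of the top than of the bottom 25% by CD127. In the cells with the most CD127 UMIs this did not hold for all of them in every library. AMPL388433 had a partial correlation of -0.141, -0.121 and -0.102 (mean -0.121, limma adjusted p = 0.00187). In the cells with 10 or more CD127 UMIs outside the Ter-119 and FceRIa set it was methylated in 46.2%, 51.6% and 65.1%, against 81.6%, 80.04% and 85.4%. AMPL388705 was methylated in 61.2%, 48.4% and 77.8% of those cells, against 92.4%, 92.3% and 95.5%. Its top and bottom 25% differed less, 85.8%, 87.2% and 91.9% against 92.8%, 91.7% and 94.5%. AMPL371238 had 78.8%, 74.2% and 93.7% in those cells, against 94.2%, 92.4% and 94.9%, with little gap in replicate mouse 1, and its correlation of -0.103 over all cells became -0.0369 when Ter-119 and FceRIa entered as covariates, both on the z scale, and was not called (limma adjusted p = 0.286). AMPL376955 had 70.0%, 80.6% and 95.2%, against 90.7%, 88.3% and 95.1%. AMPL388659 had 86.2%, 93.5% and 98.4% in these cells, against 91.7%, 90.02% and 90.8%, and its negative correlation over all cells, -0.0886, became 0.00577 when Ter-119 and FceRIa entered as covariates. AMPL388705, AMPL371238, AMPL376955 and AMPL388659 lost their calls without main mouse 3 (limma adjusted p from 0.0918 to 0.171) and without main mouse 4 (from 0.0506 to 0.0921), while AMPL388433 kept its call under each library left out.

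A direct comparison of the 2 receptors was made by testing the difference of their correlations, CD135 minus CD127, for each amplicon. limma called 20 amplicons positive (3.36%) and 41 negative (6.88%), 10.2% of 596. None of these was called when replicate mouse 1 was left out, where 34 positive and 77 negative had an unadjusted p under 0.05 by limma. Without that mouse the difference was 0.0899 for AMPL371589, -0.134 for AMPL371668 and -0.110 for AMPL377174 (limma adjusted p from 0.0638 to 0.0718). AMPL371589 leaned most to CD135, with 0.0833, 0.0788 and 0.188 for CD135 against 0.00930, -0.0267 and 0.0417 for CD127. The difference was 0.109 on the z scale (limma adjusted p = 0.0032). AMPL371265 and AMPL365895 followed with differences of 0.0976 and 0.0933. AMPL371668, AMPL377174 and AMPL366000 leaned most to CD127, with differences of -0.126, -0.125 and -0.124. Of these named amplicons, all but AMPL371668 had the widest difference in replicate mouse 1. AMPL371265 had 0.0435, 0.0380 and 0.175 for CD135, against -0.0412, 0.00509 and 0.00150 for CD127. In AMPL371668 CD135 had 0.00788, 0.0380 and -0.0534, against 0.149, 0.162 and 0.0572 for CD127.

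Amplicons called for both receptors numbered 42, which is 75% of the CD135 calls and 33.6% of the CD127 calls. In 41 both were positive, in 1 both were negative and in 0 the signs were opposite. AMPL388255 and AMPL376917 had the largest shared correlations. The 2 tags correlate with each other over the same cells, so the shared calls are not independent.

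**Figure D4:**
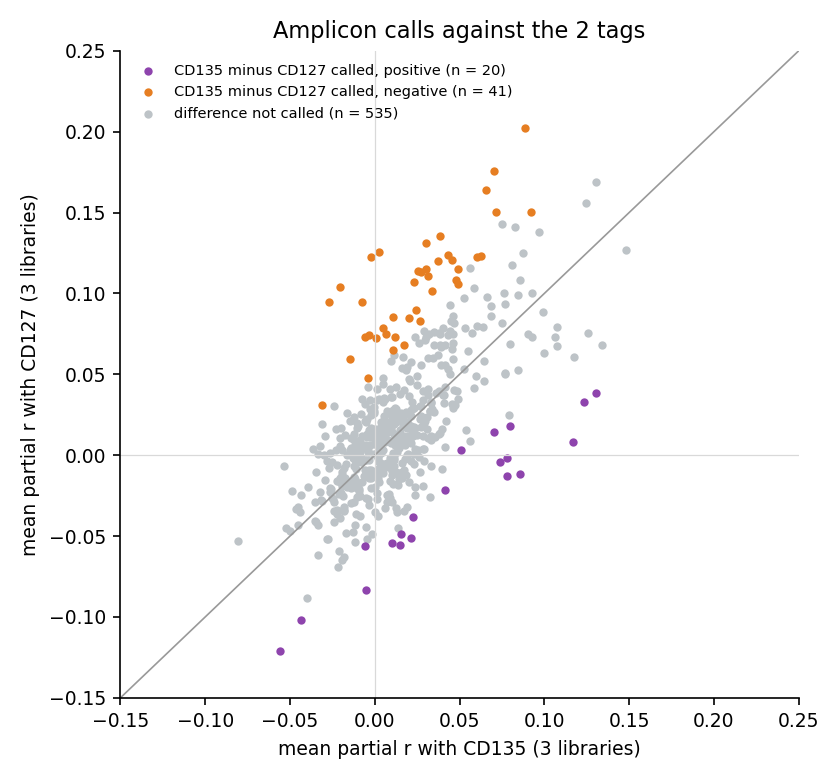
Mean partial correlation of the 596 amplicons with CD135 (horizontal axis) and CD127 (vertical axis) over 3 libraries, with amplicons whose difference was called in purple (CD135 higher, 20) and orange (CD127 higher, 41). The cloud follows the diagonal near 0 and reaches 0.148 for CD135 and 0.202 for CD127.

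Cells with more of either receptor had a slightly larger share of intermediate amplicons methylated, those 413 amplicons read in 25 to 90% of cells on average. The partial Spearman correlation of that share with CD135 was 0.0658, 0.0436 and 0.0876 (mean 0.0657, limma adjusted p = 0.0257 over 19 tags). For CD127 it was 0.0804, 0.0833 and 0.0704 (mean 0.0780, adjusted p = 0.00915). In this panel 10 tags were called and 9 of them were positive. Neither call held without main mouse 3 (adjusted p = 0.280 and 0.261), nor did that of CD135 without replicate mouse 1 (adjusted p = 0.0705). Neither call held with the centred log ratio in place of counts, where the values were 0.00637 and 0.0158 on the z scale (adjusted p = 0.866 and 0.743).

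The BM+spleen library gave the values of the same amplicons in mature immune cells, in 5359 cells with 100 or more tag UMIs and a median of 23640 reads. The 53 CD135-positive amplicons had a median of 50.1% of cells methylated in BM+spleen, against 44.2% in the marrow libraries. The median of their single differences was 10.6 percentage points, and 35 of them, 66.0%, lay above the range of all 3 marrow libraries. Over all 596 amplicons the marrow median was 69.9%, the median difference was 1.49 points and 39.9% lay above that range. The 112 CD127-positive amplicons, with a marrow median of 33.8%, had a median difference of 5.70 points with 64 above the range. The 13 CD127-negative ones, with a marrow median of 85.5%, had a median of -6.32 points with 10 lower, beside 251 of all 596. The lists were not matched on marrow level, and its part in these differences was not tested. BM+spleen is 1 library and has fewer reads per cell, so no test was made. After thinning all cells to 10000 reads the medians were 14.6 points for CD135-positive, 7.96 for CD127-positive and 3.85 for all amplicons.

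Several single amplicons were far from the marrow range in BM+spleen. AMPL376917 was methylated in 88.9% of BM+spleen cells (exact 95% interval 88.1 to 89.8%), against 47.1%, 49.7% and 37.8% in the marrow libraries. AMPL388335 was methylated in 85.7%, against 57.0%, 60.3% and 52.4%. AMPL388596 was methylated in 29.4%, against 8.7%, 9.3% and 14.0%. AMPL365795, negative with CD135, was methylated in 15.0%, against 33.2%, 30.6% and 43.2%. AMPL388705, negative with CD127, was methylated in 77.1%, against 91.5%, 91.2% and 94.9%. AMPL388255 went against its positive relation to both receptors, with 2.4% in BM+spleen against 4.3%, 4.5% and 3.6%.

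**Figure D5:**
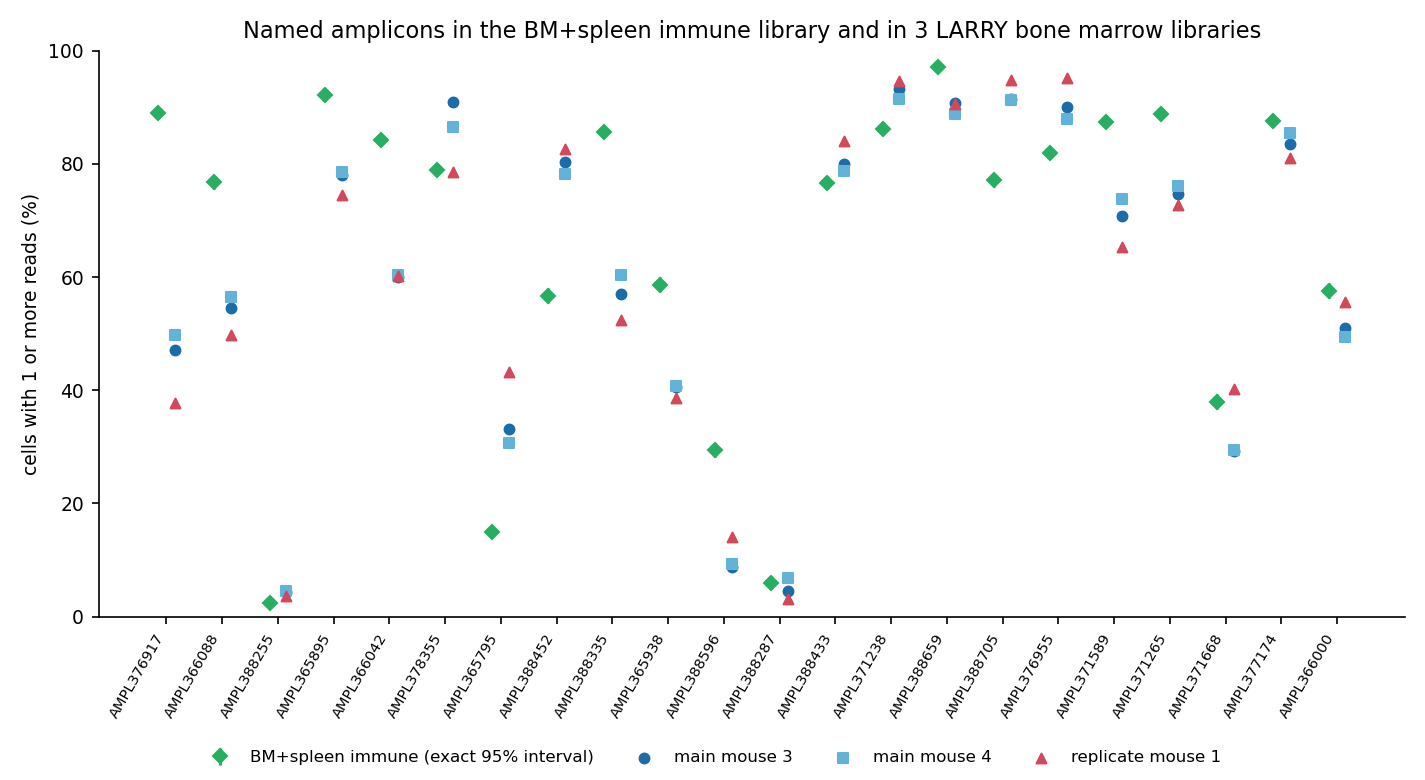
Share of cells with 1 or more reads for the 22 named amplicons in the BM+spleen immune library (green, exact 95% interval, mostly smaller than the symbol) and in the 3 LARRY bone marrow libraries. AMPL376917 stands at 88.9% in BM+spleen and at 37.8 to 49.7% in marrow, and AMPL388705 at 77.1% and 91.2 to 94.9%.

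The amplicons were chosen without the lineage tags of the BM+spleen library, but the CD45R/B220 ranks below were chosen after values were seen. CD45R/B220, a B cell marker, was positive with 46 of 53 CD135-positive amplicons (median partial correlation 0.0528) and with 93 of 112 CD127-positive ones (0.0465), beside 369 of all 596 (0.0117). CD11b, a myeloid marker, was positive with 14 of 53 and 29 of 112, at medians of -0.0378 and -0.0399, beside 343 of 596 (0.00825). These are values of 1 library and are given without a test.

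AMPL388705, AMPL388433 and AMPL388596, which differed by wide margins in the CD127 cells of marrow, stood at the ends of the CD45R/B220 correlations in BM+spleen. AMPL388705 had the lowest of all 596 correlations with CD45R/B220, -0.249, and AMPL388433 the second lowest, -0.206. AMPL388596 had the sixth highest, 0.204. In the 25% of BM+spleen cells with the most CD45R/B220, AMPL388705 was methylated in 60.3% of cells, AMPL388433 in 61.8% and AMPL388596 in 45.0%, against 87.4%, 85.1% and 21.1% in the 25% with the least. Each had the same direction in the marrow cells high in CD127. The CD45R/B220 medians of those cells were 13 and 3 UMIs, at totals of 215 and 153 tag UMIs. AMPL371265, 1 of those leaning to CD135, had -0.148 with CD45R/B220, the fifth lowest. AMPL376917 and AMPL388335, the leading amplicons of CD135 and CD127, had 0.0288 and 0.0118, ranks 197 and 296 of 596 from the highest. AMPL388335 thus lay mid-range, although it also differed by a wide margin in the CD127 cells of marrow. The amplicons at the ends were picked after values were seen, so their ranks are a description.

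CD135 and CD127 were also stained in a LARRY library of mature myeloid cells from bone marrow and peripheral blood (BM+PB), with another antibody panel. There CD135 had a median of 0 UMIs and at least 1 UMI in 33.5% of 3902 cells. CD127 had a median of 33 UMIs, but it made up 13.7% of tag UMIs in cells, against 16.9% outside cells, and its level followed the sum of 6 isotype control tags with a Spearman correlation of 0.878 and the total of all tag UMIs with 0.933. For CD135 these were 0.363 and 0.382. The 2 tags had a partial correlation of 0.0203 in this library, and their largest correlations with any amplicon were 0.0720 for CD135 and 0.138 for CD127. The isotype tags were absent from the panel of the 3 bone marrow libraries, so the same comparison was not made there.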

How the data were processed

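Read counts per cell and amplicon and UMI counts per cell barcode and antibody tag, neither normalized, were deposited by the authors, per the file headers. The method was scTAM-seq on Mission Bio Tapestri per the labels' protocols. The submitters' processing notes name mm10 as the build. For the aligner and the cell caller, no name is given in the sources used here. Gene positions came from RefSeq (GRCm38.p6).

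Titles of the samples gave the groups and replicate numbers, and libraries, not cells, were the replicates. Their p-values measure the spread between these 3 libraries, with the variance shared by empirical Bayes over the tags or pairs of a fit. For the share of intermediate amplicons the variance was fully pooled, with a standard error of 0.0250 for each of the 19 tags. Cells with 100 or more tag UMIs were kept. Doublets were not called. Tag ranks and calls (1 or more reads) were regressed on log10 reads and log10 total tag UMIs, and Pearson correlations of the residuals were taken per library. Fisher z values were tested with limma 3.58.1 (R 4.3.3; intercept, empirical Bayes) with Benjamini-Hochberg adjustment at 0.05, over 596 amplicons methylated in 2 to 98% of cells on average and 19 tags. The procedure was tested on simulated data. Top and bottom 25% were cut on the residual tag rank. Shares have exact Clopper-Pearson 95% intervals, which cover counting error only. Named were, per receptor, the 3 tags highest and lowest in mean correlation, up to 5 called amplicons per direction with 1 sign in all libraries, 3 per direction for the difference, and 2 called for both. The sets of cells with 5 or more Ter-119 and FceRIa UMIs, or with 10 or more UMIs of a receptor, and the CD45R/B220 ranks were chosen after values were seen. The members and lists were chosen with earlier results of these data known. Alternatives changed the tag scale, the covariates, the read call, the cell and amplicon filters and the libraries. Python 3.11.15 was used.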

Additional observations from a re-analysis of the deposited data

Results flagged for a closer look

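The relation of CD135 to 5 tags, and of CD127 to 1, had 1 sign in replicate mouse 1 and the opposite sign in both main mice. The difference was not tested in any of them. The partial correlation of CD135 with CD150, a stem cell and megakaryocyte marker, was -0.102 in replicate mouse 1, against 0.166 and 0.284 in main mouse 3 and main mouse 4. With CD41 it was -0.0784 in replicate mouse 1, against 0.0973 and 0.219. With CD9, another platelet-lineage tag, it was -0.147, against 0.00965 and 0.00588. With CD27 it was 0.118, against -0.0121 and -0.0638. With CD48 it was 0.0323, against -0.116 and -0.160. The partial correlation of CD127 with I-A/I-E was 0.0769 in replicate mouse 1, against -0.0538 and -0.0169. These signs changed in part without the cells high in Ter-119 and FceRIa. CD27 was then positive with CD135 in every library, at 0.200 in replicate mouse 1, against 0.0870 and 0.0169. In main mouse 3 the sign of CD41 became negative at -0.0109 and that of CD9 at -0.0231, as in replicate mouse 1. The contrast of signs remained for CD150, CD48 and I-A/I-E. Replicate mouse 1 had more tag UMIs per cell, a median of 301 against 215 and 212, and fewer of its tag UMIs outside cells, 67.6% against 84.7% and 86.3%. The part of depth in these differences was not tested.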

How the results depend on the processing

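The agreement of CD135 and CD127 was called by limma under each of 14 settings, the reported one included, and totals without the 2 tags, constitutive detection as a covariate and no filter on amplicons moved no count by over 1.5 times. Other settings moved counts of called amplicons, and where none is given below the count moved less. With 53 positive and 3 negative for CD135, negative calls were 13 by centred log ratio, 22 on log2 UMIs plus 1, 1 with no minimum of tag UMIs, 12 with 300 or more UMIs, 1 with Ter-119 and FceRIa as covariates (added after seeing the data) and 0 without the cells high in both (added too). Positive ones were 152 with no covariates, 35 by top against bottom 25% and 35 without those cells. With 112 positive and 13 negative for CD127, the counts were 72 and 41 by centred log ratio, 44 negative on log2 UMIs plus 1, 170 and 8 with no covariates, 67 and 6 by top against bottom 25%, 4 negative with Ter-119 and FceRIa as covariates, and 60 and 4 without those cells. For the difference, with 20 positive and 41 negative, positive ones were 39 with no covariates, 32 at 5 or more reads, 11 with no minimum, 1 by top against bottom 25% and 12 with Ter-119 and FceRIa, and negative ones 25 with no minimum and 12 by top against bottom 25%. Leaving out 1 library gave 9 to 116 positive and 0 to 18 negative calls for CD135, 17 to 145 and 1 to 32 for CD127, and 0 to 30 and 0 to 36 for the difference. The share of intermediate amplicons per cell, 0.0658 for CD135 and 0.0782 for CD127 on the z scale, lost its calls at 0.00637 and 0.0158 by centred log ratio, 0.0452 and 0.0629 on log2 UMIs plus 1, and 0.0506 and 0.0630 without the 5% of cells with the most amplicons or tags, and for CD135 at 0.0529 with 5 or more reads. It was larger at 0.137 for CD127 with constitutive detection as a covariate and at 0.113 for CD135 with no covariates. Leaving out 1 library gave 0.0548 to 0.0769 for CD135 and 0.0755 to 0.0820 for CD127. In BM+spleen the median difference over all amplicons, 1.49 points, was -1.02 at 5 or more reads. Thinned to 10000 reads, the medians were 14.6 and -16.9 points for CD135 positive and negative and 7.96 and -3.29 for CD127, and at 5 or more reads -17.2 for CD135 negative and -12.9 for CD127 negative. The mean share of cells with a UMI fell to 47.0% (CD135) and 46.6% (CD127) after thinning, against 69.1% and 68.7%. AMPL388659 against CD127 became 0.00577 with Ter-119 and FceRIa as covariates. Of 384 values of named amplicons under alternatives 338 kept direction and side of the threshold, 45 kept direction only and 1 reversed. The cause of these shifts was not tested. Isotype tags as a covariate were not run, since the panel has none. No paired analysis was possible because no 2 groups of libraries were compared.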
